A study of Mus musculus with 2 samples.

Results

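The Flt3/Cd34 cells described here were bone marrow barcodes chosen by their own transcripts, as candidates for Flt3-positive multipotent progenitors. A barcode was kept with 200 to 9000 detected genes, at most 30% of its UMIs (unique molecular identifiers, 1 per captured transcript) from mitochondrial genes and at least 2000 UMIs. Among kept barcodes, a Flt3/Cd34 cell held at least 2 UMIs of *Flt3* and at least 1 of *Cd34*, no UMI of *Mecom* (stem cells), *Siglech* (plasmacytoid dendritic cells) or *Ebf1* (B cell precursors), and fewer than 0.5% of its UMIs from the primary granule genes *Elane*, *Prtn3*, *Mpo* and *Ctsg*. The rule was met by 101 of 11761 kept barcodes, 81 of 7252 in the control library (Ctrl) and 20 of 4509 in the conditional knockout library (cKO). Because the rule read these genes, their levels in the Flt3/Cd34 cells are a description and not a finding.

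The study asked how loss of the kinase MAP4K4 affects neutrophil differentiation, and 1 droplet library per genotype was sequenced. Both came from C57BL/6 mice of 13 to 14 weeks, and in both, cells enriched on beads for c-Kit were mixed with red-cell-lysed whole marrow in a ratio of 2 to 3. The cKO mice carried Mx1-Cre and floxed *Map4k4* alleles (*Map4k4* f/f) and had received poly I:C. The controls were littermates that also carried Mx1-Cre, with a *Map4k4* genotype that the methods write as -/-. What that notation stands for in a control, and whether the controls too received poly I:C, is not stated in the sources used here. The number of mice behind each library is not stated. Mx1-Cre is switched on by interferon, and it acts in interferon-responsive cells in general, not in one lineage. With 1 library per genotype there was no test between genotypes, and the genotype cannot be told apart from any other difference between the libraries. All intervals below are exact 95% intervals unless named otherwise, and they cover counting error only.

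FLT3 is the receptor tyrosine kinase for FLT3 ligand. In mouse marrow, long-term stem cells carry little of it, and it appears as progenitors lose self-renewal and megakaryocyte and erythroid potential while keeping lymphoid and myeloid potential. Early lymphoid genes such as *Dntt* and early monocyte and dendritic genes such as *Irf8* are known to come up in such progenitors before any lineage is fixed. CD34 is a surface sialomucin of progenitors, CD27 a receptor of the TNF receptor family found on multipotent progenitors, and SOX4 an HMG-box transcription factor of early lymphoid and multipotent cells. Potency itself is not read by a transcript count, so the word multipotent remains a label.

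The deposited matrices held 10220 Ctrl and 6872 cKO barcodes, with 71527701 and 64393950 UMIs over 32285 genes. The Flt3/Cd34 cells held 1190055 UMIs in Ctrl and 318998 in cKO. Their median depth was 12626 UMIs per cell in Ctrl (2675 to 58766) and 14105 in cKO (5217 to 34099), with medians of 3810 and 3991 genes. Mitochondrial genes took 2.34% of their summed UMIs in Ctrl and 2.04% in cKO. Ribosomal protein genes took 24.0% and 31.5%, against 22.7% and 28.0% in the stem-like cells defined below. The libraries shared 3010 barcode names, as a common whitelist allows. 49 Ctrl and 14 cKO members carried a shared name, none was a member in both libraries, and profiles under a shared name correlated no more than profiles paired after a shift of the list (median correlations of 0.459 and 0.460).

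The steps of the rule removed unequal numbers of the *Flt3*-bearing barcodes. In Ctrl, 496 kept barcodes held a *Flt3* UMI, 252 held at least 2, and 200 of those also held *Cd34*. Requiring no *Mecom* left 132, no *Siglech* 126, no *Ebf1* 120, and the granule threshold left 81. In cKO the same steps gave 156, 68, 57, 40, 39, 38 and 20. The loss at *Mecom* and at the granule threshold exceeded that at *Siglech* and *Ebf1* in both libraries. None of the 2713 Ctrl and 2209 cKO deposited barcodes below 2000 UMIs met the rest of the rule. When the members were thinned at random to 2000 UMIs each, 42 of 81 in Ctrl and 7 of 20 in cKO held any *Flt3* UMI. Shallow cells of this type can therefore miss the rule, and the absence of hits does not show that none was lost.

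*Flt3* (chr5:147330741-147400489, minus strand, GRCm38, as are all positions here) had a lowest, median and highest count of 2, 4 and 14 UMIs per cell in each library. *Cd34* (chr1:194938819-194961279, plus strand) had 1, 4 and 19 in Ctrl and 1, 7 and 15 in cKO. The rule set the lower ends of both. *Cd27* (chr6:125232622-125237010, minus strand), which the rule did not use, had 0, 1 and 8 UMIs in Ctrl, with at least 1 in 61 of 81 cells. In cKO it had 0, 2 and 9, with at least 1 in 16 of 20. *Sox4* (chr13:28948919-28953713, minus strand), also unused by the rule, had 0, 6 and 24 in Ctrl and 1, 7 and 29 in cKO, and was found in 74 of 81 and in all 20 cells. Most Flt3/Cd34 cells in both libraries therefore held both of the markers that the rule left free.

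Those 2 markers were compared with 3 sets of kept barcodes from the same libraries, none of which holds a Flt3/Cd34 cell. The other kept barcodes numbered 7171 in Ctrl and 4489 in cKO and were mostly neutrophils and their precursors. Stem-like cells (128 and 48) held *Mecom* and *Hlf* with a granule share under 0.5%. Granule-low progenitors (575 and 225) held *Cd34* with a granule share from 0.5% to under 5%. Levels are CPM, a population's summed UMIs for a gene scaled to a total of 1000000. *Cd27* was at 122 CPM in Ctrl members and 188 in cKO members. It was at 22.6 and 13.3 in the other kept barcodes, 60.9 and 71.4 in granule-low progenitors, and 145 and 150 in stem-like cells. *Sox4* was at 502 and 530 CPM in members, 91.2 and 25.3 in the other kept barcodes, 166 and 111 in granule-low progenitors, and 516 and 401 in stem-like cells. Both markers were thus higher in the Flt3/Cd34 cells than in granule-low progenitors and in the other barcodes. Against stem-like cells they differed by less than 2-fold in either library, with log2 ratios of -0.25 and 0.32 for *Cd27* and -0.04 and 0.40 for *Sox4*. The label's markers therefore fit early progenitors, but *Cd27* and *Sox4* do not set these cells apart from the stem-like ones.

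**Figure D1:**
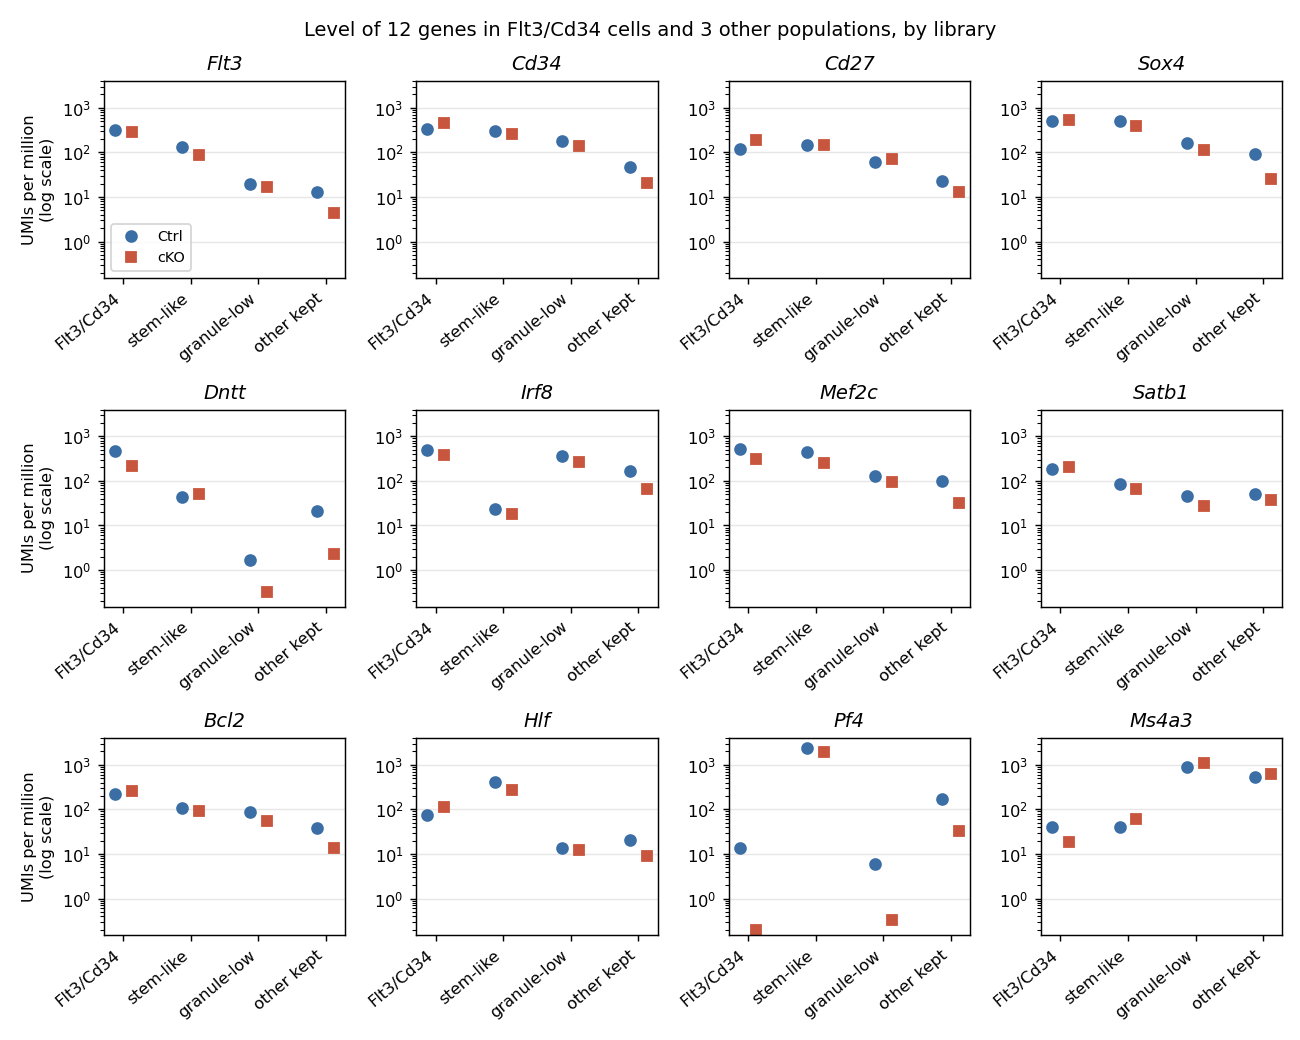
Summed level of 12 genes (CPM, log axis) in Flt3/Cd34 cells, stem-like cells, granule-low progenitors and the other kept barcodes, with blue circles for Ctrl and red squares for cKO. *Dntt* lies highest in the Flt3/Cd34 cells in both libraries, *Pf4* lies highest in stem-like cells and *Ms4a3* is far lower in the Flt3/Cd34 cells than in the other kept barcodes. *Pf4* had no UMI in cKO members and is drawn at the lower edge.

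Against the other kept barcodes, the Flt3/Cd34 cells held more of an early lymphoid gene, transcription factors of progenitors and a survival gene. They held less of neutrophil granule and membrane genes. Of 13553 genes with at least 10 UMIs in each library, 1251 (9.23%) were over 2-fold higher in the members in both libraries and 1920 (14.2%) were over 2-fold lower. The median log2 ratio of all genes tested was 0.31 in Ctrl and 0.75 in cKO, above 0 in both. The counts depended on scale. With median-of-ratios size factors 643 were higher and 2392 lower. *Dntt* (chr19:41029275-41059525, plus strand) encodes terminal deoxynucleotidyl transferase, which adds untemplated bases at antigen receptor joins. It was at 460 CPM in Ctrl members and 21.5 in the other Ctrl barcodes, and at 219 against 2.35 in cKO, log2 ratios of 4.42 and 6.55. *Bcl2*, an inhibitor of apoptosis, was at 218 against 38.2 CPM in Ctrl and 263 against 13.5 in cKO. *Mef2c*, a transcription factor of lymphoid progenitors, was at 508 against 99.3 and 313 against 32.1. *Runx2*, a Runt-family factor, was at 163 against 35.8 and 119 against 20.3. *Angpt1*, the ligand of the TIE2 receptor, was at 134 against 32.1 and 116 against 8.76. *Adgrl4*, an adhesion receptor, was at 245 against 38.6 and 210 against 16.2. The remaining genes that the naming rule took, apart from the markers above, were *Cd69*, *Ctr9*, *Coro2a*, *Adgrg1*, *H2afy*, *Chd3* and *Atp2b4*, with log2 ratios from 1.95 to 2.28 in Ctrl and from 2.33 to 3.80 in cKO. Against stem-like cells, none of 22 progenitor transcription factors was over 2-fold higher in both libraries and 3 were lower. None of 9 tested BCL2 family genes passed either way there. Over all genes tested against stem-like cells, 0.811% were higher and 3.71% lower. These 2 lists thus did not set the members apart from stem-like cells as higher.

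On the low side, *Ms4a3*, a gene of granulocyte and monocyte precursors, was at 39.5 CPM in Ctrl members against 539 in the other Ctrl barcodes. In cKO it was at 18.8 against 614. *Retnlg*, *Ly6g*, *Mmp8* and *Mmp9*, genes of maturing neutrophils, had log2 ratios of -3.42, -3.24, -3.05 and -2.93 in Ctrl and -5.05, -4.94, -5.98 and -4.80 in cKO. *Trem3*, *Fcgr3* and *Gda* had -3.35, -2.98 and -2.98 in Ctrl and -3.83, -5.39 and -4.84 in cKO. *Clec4a2* and *Mcemp1* had no UMI in cKO members, which puts them at least 28.3-fold and 41.6-fold lower than in the other cKO barcodes when the members are set at a floor of 3 counts. All 12 tested genes of the late neutrophil list were over 2-fold lower in the members in both libraries, beside 14.2% of all genes tested. The rule itself set a ceiling on the primary granule genes, and its part in the levels of other granule genes was not tested.

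Against stem-like cells, fewer genes differed than against the other kept barcodes or granule-low progenitors, which were the sets contrasted gene by gene, and those that did separated monocyte, dendritic and lymphoid genes from megakaryocyte and stem cell genes. Of 8757 genes tested, 71 (0.811%) were over 2-fold higher in the Flt3/Cd34 cells in both libraries and 325 (3.71%) were lower. *Mecom* and *Hlf*, which define the stem-like cells, were set apart. *Irf8* (chr8:120736358-120756694, plus strand), a transcription factor required for monocytes and dendritic cells, was at 492 CPM in Ctrl members against 23.7 in stem-like cells, and at 379 against 18.3 in cKO. Its log2 ratio was 4.38 in each library. In members without markers of another cell type, described below, it was at 323 CPM in Ctrl and 386 in cKO, again above the stem-like level. *Dntt* was at 460 against 43.2 CPM and 219 against 52.0, so it was higher in the members in both libraries, by a smaller ratio in cKO. *Lgals1* (galectin-1), *Plac8*, *Ms4a6c*, *Clec12a* (a C-type lectin of myeloid cells), *BC035044* and the chemokine *Ccl9* completed the 8 highest, with log2 ratios up to 2.58 in Ctrl and 2.49 in cKO. The myeloid list had 4 of 16 genes higher (*Irf8*, *Csf1r*, *Ctss* and *Ly86*) and none lower. *Csf1r*, the receptor of macrophage colony-stimulating factor, was at 51.3 against 10.3 CPM in Ctrl and 56.4 against 8.43 in cKO. Of the lymphoid list, *Dntt* and *Satb1*, a chromatin organizer of lymphocytes, were higher and none of the 9 tested was lower.

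*Pf4* (platelet factor 4) was at 13.4 CPM in Ctrl members against 2385 in stem-like cells. In cKO members it had no UMI, against 1963 CPM, at least 209-fold lower at the floor of 3 counts. The stem-like level came from a minority of cells, since a *Pf4* UMI was found in 31 of 128 Ctrl and 5 of 48 cKO stem-like cells, beside 13 of 81 Ctrl members. The integrin *Itga2b* of megakaryocytes had log2 ratios of -5.27 and -5.29, and *Gata2*, a factor of stem cells and megakaryocyte and mast cell precursors, had -2.69 and -3.33. *Apoe*, *Itga6*, *Rap1b* and *Cd9* were also among the 8 lowest, with -1.84 to -2.10 in Ctrl and -1.72 to -4.14 in cKO. The erythroid and megakaryocyte list had 11 of 14 genes lower and none higher, beside 3.71% lower and 0.811% higher over all genes tested. Megakaryocyte transcripts were thus present in the stem-like set and scarce in the Flt3/Cd34 cells. The stem cell list had 8 of 16 genes lower, among them *Angpt1*, *Meis1*, *Pdzk1ip1*, *Tie1*, *Procr*, *Gata3* and *Prdm16*, and none higher. *Meis1*, a homeobox factor of stem cells, was at 81.5 against 254 CPM in Ctrl and 69.0 against 229 in cKO. The list's median log2 ratio was -1.34 in Ctrl and -1.18 in cKO, beside -0.08 and -0.10 over all genes tested.

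Receptors and signaling genes were compared in the same way. In the cytokine receptor list, 2 of 16 genes were higher than in stem-like cells, *Csf1r* and *Il6st*, and 1 was lower. Over all genes tested against stem-like cells, 0.811% were higher and 3.71% were lower. *Il6st*, the shared signaling chain gp130 of the interleukin-6 family, was at 58.8 against 9.12 CPM in Ctrl and 75.2 against 12.6 in cKO. Among 23 genes of FLT3 signaling (adaptors, kinases, STAT factors, their inhibitors and targets), *Cish*, a STAT5-induced inhibitor, was lower and none was higher. That share is near the 3.71% lower of all genes. *Flt3* itself was at 319 and 285 CPM in members, 130 and 85.7 in stem-like cells, 19.2 and 16.6 in granule-low progenitors, and 199 and 230 in plasmacytoid dendritic-like cells. Its order is fixed in part by the rule. *Kit*, the stem cell factor receptor, was at 160 and 141 CPM in members, below stem-like cells (246 and 188) and above granule-low progenitors (131 and 76.6).

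Against granule-low progenitors, early lymphoid and progenitor genes were among those higher, and some genes of granulocyte and monocyte precursors and of basophils among those lower. Of 10793 genes tested, 462 (4.28%) were over 2-fold higher in the Flt3/Cd34 cells in both libraries and 371 (3.44%) were lower. With median-of-ratios size factors this became 320 higher and 498 lower. *Dntt* was at 1.64 CPM in Ctrl granule-low progenitors and 0.328 in cKO, log2 ratios of 8.14 and 9.39. *Satb1* had log2 ratios of 2.02 and 2.91, *Mef2c* of 2.00 and 1.76, *Angpt1* of 1.97 and 3.38 and *Runx2* of 2.21 and 1.92. *Tspan13*, a tetraspanin, *Ctla2a* and *Car2*, a carbonic anhydrase, completed the 8 highest, with 2.14 to 2.86 in Ctrl and 2.58 to 3.50 in cKO. In the stem cell list 8 of 14 genes were higher and none lower, and in the list of progenitor transcription factors 9 of 22 were higher while *Gfi1*, a repressor needed for granulocytes, was lower. The lymphoid list had 5 of 9 higher, *Dntt*, *Satb1*, *Notch1*, *Rhoh* and *Il12a*. *Pim1*, a kinase downstream of STAT5, was at 238 against 77.6 CPM in Ctrl and 295 against 101 in cKO, and was 1 of 5 genes of 24 in the FLT3 signaling list that were higher, with *Foxo1*, *Foxo3*, *Fyn* and *Socs3*.

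*Ms4a3* had log2 ratios of -4.48 and -5.87 against granule-low progenitors, and *Fcgr3*, a low-affinity Fc receptor of myeloid cells, -2.98 and -4.74. *Ly6c2*, a surface antigen of monocytes and their precursors, had -2.95 and -4.80, and *Mcpt8*, a basophil protease, -3.15 and -2.76. *Rgcc*, *Alas1*, *Gstm1* and *Nkg7* completed the 8 lowest, at -2.48 to -2.92 in Ctrl and -2.69 to -3.50 in cKO. The myeloid list had 6 of 16 genes lower and none higher, among them the CCAAT-enhancer binding factors *Cebpa* and *Cebpe*. The basophil list had 5 of 6 lower. Over all genes tested, 3.44% were lower and 4.28% were higher. The monocyte list had 2 of 7 lower. The rule and the definition of granule-low progenitors split the 2 sets by their granule share. The part of that split in these lower levels, and in that of *Gfi1*, was not tested. None of the 12 late neutrophil genes was past 2-fold the same way in both libraries, with a median log2 ratio of 1.23 in Ctrl and -0.64 in cKO. In the cell cycle entry list *Ccnd1* and *Cdkn1a* were higher of 11 genes and none was lower. *Irf8* lay close to the level in these progenitors, at 354 CPM in Ctrl and 265 in cKO.

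The Flt3/Cd34 cells were not uniform in *Dntt* and *Irf8*. *Dntt* had a lowest, median and highest count of 0, 1 and 80 UMIs per cell in Ctrl, with at least 1 in 46 of 81 cells, and of 0, 0 and 37 in cKO, with at least 1 in 8 of 20. The 5 Ctrl cells with the most (80, 53, 44, 35 and 34 UMIs) held 44.9% of the Ctrl *Dntt* UMIs, and 1 cKO cell held 52.9% of the cKO ones. *Irf8* had 0, 4 and 51 in Ctrl, with at least 1 in 65 cells, and 0, 1.5 and 26 in cKO, with at least 1 in 11. Both genes thus ranged from no UMI to counts far above the median, and the cKO sum of *Dntt* rested on few cells. With at least 2 UMIs taken as present, 21 Ctrl cells held both genes, 14 held *Dntt* without *Irf8*, 37 held *Irf8* without *Dntt* and 9 held neither. In cKO the numbers were 3, 2, 7 and 8. In Ctrl, 2 of the 19 cells with at least 10 *Irf8* UMIs held 2 or more of *Dntt*, and in cKO 1 of 4 did. Of the 19 Ctrl cells with at least 10 *Dntt* UMIs, 12 held 2 or more of *Irf8*, and in cKO 1 of 2 did. Of the Ctrl high-*Irf8* cells 14 carried markers of another cell type, described below, and of the high-*Dntt* cells 2 did. The cells with neither made up 11.1% in Ctrl and 40% in cKO, and they were the shallowest of the 4 classes in both libraries, with medians of 7799 and 10465 UMIs.

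**Figure D2:**
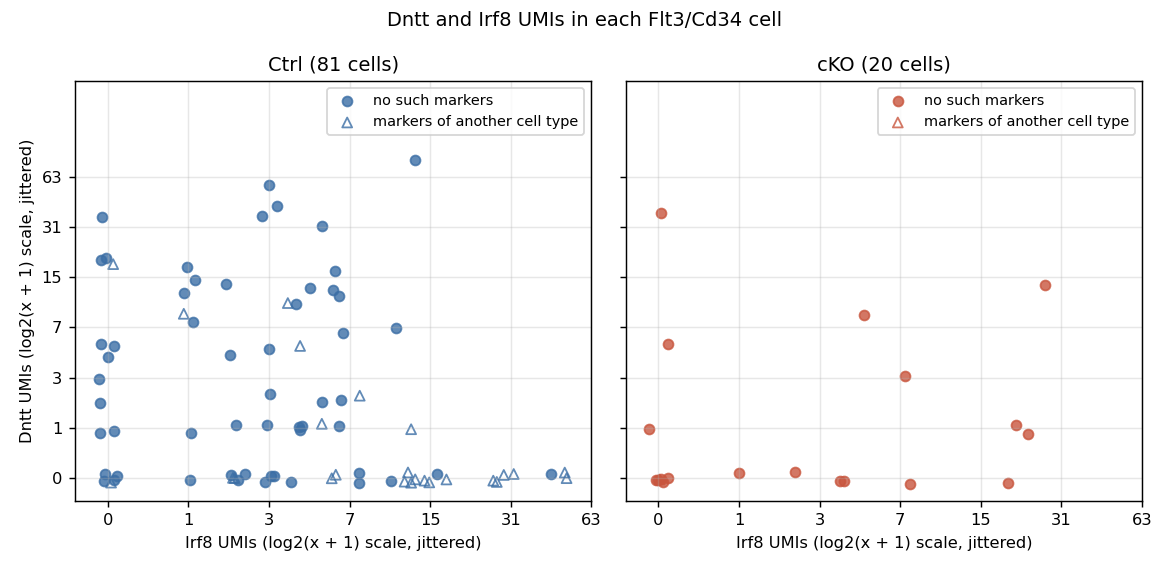
*Dntt* against *Irf8* in each Flt3/Cd34 cell, as log2 of UMIs plus 1 with a small jitter, for Ctrl (81 cells) and cKO (20 cells). Triangles are cells that carry markers of another cell type, and 14 of the 19 Ctrl cells with at least 10 *Irf8* UMIs are triangles at the right of the panel, most of them without *Dntt*.

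Thinning every cell to 2000 UMIs set the shares at equal depth. A *Dntt* UMI was then found in 37.0% of Ctrl members (26.6 to 48.5) and 10.0% of cKO members (1.23 to 31.7), against 56.8% and 40% unthinned. In stem-like cells the thinned shares were 3.91% and 6.25%, and in granule-low progenitors 0.522% and 0. In late neutrophil-like cells, which should not express the gene, they were 0.778% and 0.0331%, so the share in Ctrl members lay far above the background. The gene was not confined to the members, since its thinned shares were 25.6% and 30% in plasmacytoid dendritic-like cells and 20.7% and 0 in early B-like cells. The cKO share stands for 2 cells of 20, and its interval overlapped that of Ctrl members and included the shares of stem-like cells. *Irf8* was found after thinning in 39.5% and 35.0% of members, near the 40.3% and 31.1% of granule-low progenitors and above the 7.81% and 0 of stem-like cells. In plasmacytoid dendritic-like cells its shares were 97.7% and 100%. *Hlf*, a factor of stem cells, was found in 14.8% and 10.0% of members and 54.7% and 39.6% of stem-like cells, which it helped to define.

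Genes of committed lymphoid progenitors were scarce. *Il7r*, the interleukin-7 receptor chain, was found in 10 Ctrl and 2 cKO members, and after thinning in 3.70% and 5%, against 46.5% and 50% of plasmacytoid dendritic-like cells and 26.9% and 10.0% of early B-like cells. *Rag1*, of the recombinase, had no UMI in any thinned member. It was found in 14.7% of Ctrl early B-like cells and in none of the 20 cKO early B-like cells, so cKO gives no contrast. *Ccr9*, a homing receptor of thymus-seeding and plasmacytoid dendritic cells, also had none, against 54.7% and 50% of plasmacytoid dendritic-like cells. The members that held *Il7r* had *Dntt* at 1370 CPM in Ctrl and 1429 in cKO, against 268 and 109 in those without it.

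Splitting the members by *Dntt* or *Irf8* described what varied with them, on the cells from which each split was made. Cells with *Dntt* had *Satb1* at 249 CPM in Ctrl and 289 in cKO, against 112 and 141 in cells without it. *Foxp1*, a forkhead factor of lymphoid cells, was at 315 and 296 against 145 and 170, and *Mef2c* at 611 and 377 against 397 and 258. *Flt3* was at 407 and 336 against 224 and 241. *Hist1h1b*, a histone gene of dividing cells, was lower with *Dntt*, at 382 and 242 against 906 and 499. These 5 genes had the same order in both libraries. For *Satb1*, *Foxp1* and *Hist1h1b* this follows from the choice, since the ranking that named them used the smaller of both libraries' ratios. *Irf8* had opposite orders, at 249 and 552 CPM with *Dntt* and 756 and 229 without. Of the Ctrl cells without *Dntt*, 18 carried markers of another cell type, and without such cells *Irf8* was at 242 CPM with *Dntt* and 516 without. Cells with *Irf8* had more *Lgals1* (387 and 812 against 178 and 103), *Clec12a* (181 and 212 against 85.3 and 74.6) and *Unc93b1*, which carries nucleic acid-sensing Toll-like receptors (120 and 123 against 54.3 and 46.6). They had less *Meis1* (67.9 and 33.1 against 194 and 140) and *Pim1* (210 and 184 against 465 and 513). *Hlf* was lower with *Irf8* in Ctrl (47.1 against 318) and close in cKO (109 against 121). Cells with *Irf8* were also deeper, with medians of 14785 and 17405 UMIs against 7379 and 10185.

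Barcodes on either side of the rule's thresholds were compared without a test. The 35 Ctrl and 14 cKO barcodes with exactly 1 *Flt3* UMI that met all else had *Sox4* at 454 and 297 CPM, *Cd27* at 141 and 186 and *Dntt* at 56.8 and 17.5. The 15 and 7 members with exactly 2 had *Sox4* at 458 and 634, *Cd27* at 102 and 185 and *Dntt* at 140 and 502. At the granule threshold, members with 0.25% to 0.5% (26 and 6 cells) had *Dntt* at 57.5 and 8.88 CPM and *Irf8* at 483 and 88.8. Barcodes just outside, at 0.5% to 1% (26 and 5), had *Dntt* at 9.77 and 0 and *Irf8* at 528 and 320. In Ctrl, *Sox4* and *Cd27* were thus close on both sides of the *Flt3* threshold and *Irf8* on both sides of the granule threshold, while *Dntt* was higher inside each. The cKO values rest on 14 or fewer cells a side.

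Some Flt3/Cd34 cells carried markers of other cell types. In Ctrl, 25 of 81 cells had at least 2% of their UMIs from late neutrophil genes or at least 10 UMIs from the markers of another lineage (monocyte, conventional dendritic, erythroid, megakaryocyte, early B, T, macrophage or basophil and mast cell), and in cKO 1 of 20 did, with 2.38% neutrophil UMIs. In 9 Ctrl cells the neutrophil genes reached 2%, and in 5 they took 25.1%, 21.9%, 17.8%, 16.3% and 10.5%. Monocyte markers reached 10 UMIs in 19 Ctrl cells, conventional dendritic and MHC class II genes in 5 and erythroid genes in 2 (159 and 84 UMIs). Such cells were deeper in Ctrl, with a median of 15313 UMIs against 11267 in those without. Apart from the neutrophil share, the threshold was a fixed count that deeper cells reach more easily, so this difference can follow in part from the definition. Plasmacytoid dendritic markers were not counted for this, since the rule already required no *Siglech*, although early B markers were counted with no *Ebf1* required. They reached at most 11 UMIs in a Ctrl member and 13 in a cKO member, past 10 UMIs in both libraries. The 25 and 1 cells thus leave out any cell past 10 UMIs by these markers alone. No doublets were called here, and the part of doublets and of free RNA in these markers was not tested.

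Summed over all members, the neutrophil markers were at 23148 CPM in Ctrl and 6066 in cKO, with all 7 above 0 and *S100a9* the most abundant (10720 and 802 UMIs). In the other kept barcodes they were at 146997 and 247198. The monocyte markers were at 492 and 72.1 CPM, led by *Ly6c2* (264 and 18 UMIs), with 4 of 4 above 0 in Ctrl and 3 in cKO, where *Fn1* was at 0. The erythroid markers were at 225 and 3.13, led by *Car1* (233 UMIs and 1), and *Gata1*, *Klf1* and *Epor* were at 0 in cKO. Conventional dendritic and MHC class II genes were at 261 and 18.8, led by *Cd74* (181 and 4 UMIs), with *Xcr1* at 0 in both libraries and *Zbtb46*, *Itgax* and *Batf3* at 0 in cKO. T cell markers were at 1.68 and 0, early B markers at 62.2 and 50.2, megakaryocyte markers at 26.9 and 12.5, basophil markers at 32.8 and 34.5 and macrophage markers at 10.9 and 0. Plasmacytoid dendritic markers ran the other way, at 155 and 235 CPM, led by *Bst2* (156 and 60 UMIs), with *Ly6d* and *Cd209d* at 0 in both libraries and *Klk1* at 0 in cKO. The neutrophil, monocyte, erythroid and conventional dendritic sums were thus higher in Ctrl than in cKO members. Many of the genotype comparisons below are therefore also given for the 56 Ctrl and 19 cKO cells without such markers, a choice made after seeing the data. In these cells 405 of 3650 genes tested were at least 1.5-fold higher in cKO and 770 at least 1.5-fold lower, which is the background for the counts given for them.

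**Figure D3:**
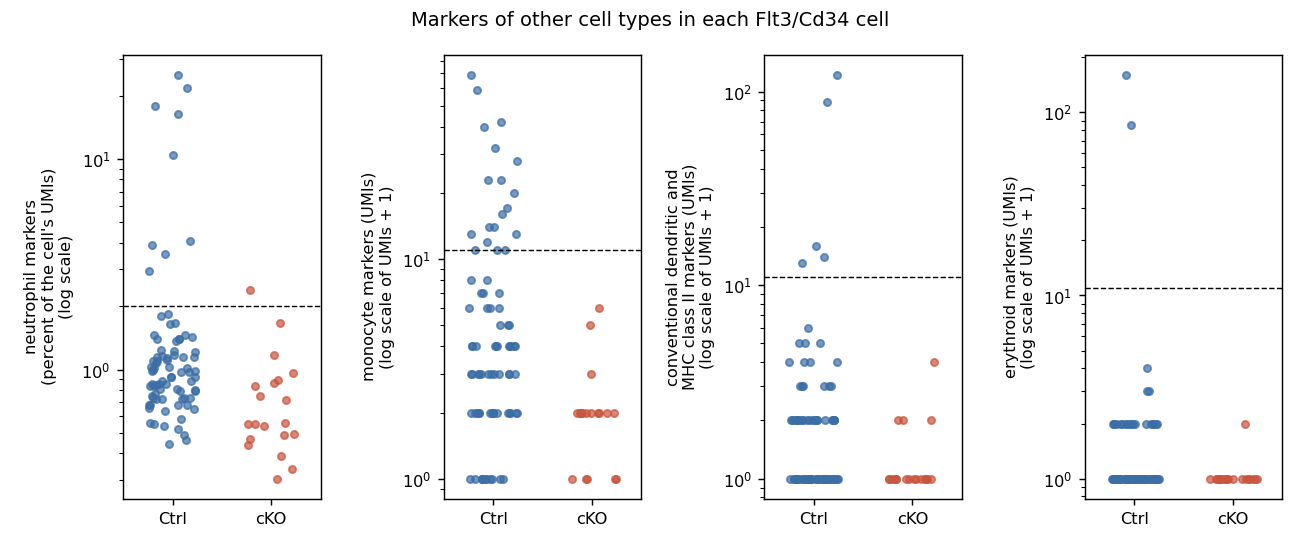
Markers of other cell types in each Flt3/Cd34 cell, in 4 panels on log axes: the percent of UMIs from late neutrophil genes, and the UMIs plus 1 of monocyte, conventional dendritic or MHC class II, and erythroid genes, for Ctrl and cKO. The dashed lines stand at 2% and at 10 UMIs, and 25 Ctrl cells against 1 cKO cell lie past at least 1 of the thresholds.

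The Flt3/Cd34 cells made up 1.12% of kept Ctrl barcodes (0.888 to 1.39) and 0.444% of kept cKO barcodes (0.271 to 0.684). The difference was -0.673 percentage points (Newcombe interval -0.985 to -0.349). Without the cells that carry other markers it was -0.351 (-0.625 to -0.0559). The lower share was not particular to them. Stem-like cells went from 1.77% in Ctrl to 1.06% in cKO, granule-low progenitors from 7.93% to 4.99% and erythroid-like cells from 4.74% to 1.71%. Plasmacytoid dendritic-like cells went from 1.19% to 0.222% and early B-like cells from 6.19% to 0.444%. The early B-like set differed in content, with immunoglobulin genes at 3.53% of its UMIs in Ctrl and 34.5% in cKO. Late neutrophil-like cells had the higher share in cKO, with 3344 of 7252 kept barcodes in Ctrl and 3024 of 4509 in cKO. With the barcodes that held a *Cd34* UMI as the denominator, the members were 7.41% of 1093 in Ctrl and 5.17% of 387 in cKO, a difference of -2.24 (-4.72 to 0.784). Of barcodes with *Kit*, they were 2.75% and 1.76%, and of barcodes with *Flt3*, 16.3% and 12.8%, and the intervals of both differences included 0. Enriched and unenriched marrow were mixed before loading, so a share of all barcodes also follows the mixing of each library, which cannot be told apart from the genotype.

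*Map4k4* (chr1:39900913-40026310, plus strand) was at 145 CPM in Ctrl members (173 UMIs) and 160 in cKO members (51 UMIs), a log2 ratio of 0.14 (-0.34 to 0.60). Per cell it had 0, 2 and 11 UMIs in Ctrl and 0, 2 and 6 in cKO, and at least 1 in 65 of 81 and 16 of 20 cells. Without the cells that carry other markers the log2 ratio was -0.22 (-0.72 to 0.27). Members held more of it than granule-low progenitors (49.8 and 49.9 CPM) and about as much as stem-like cells (127 and 142). The count reads the 3′ end of the transcript, and the sources used here do not give the floxed exons. A count at the 3′ end need not fall with an exon deletion, and whether it should here is not known, so this level settles neither the deletion nor the label. Ctrl and cKO name the libraries by their labels throughout.

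Between the genotypes, the Flt3/Cd34 cells of cKO had less of the mitotic genes, less *Dntt* and less of the neutrophil, monocyte and MHC class II genes, and more of *Ifitm1*, *Ccl4* and 2 of 3 cholesterol genes. Without the 25 Ctrl cells and 1 cKO cell that carry other markers, the monocyte and MHC class II medians were -0.15 and 0.21, on 2 and 1 tested genes. Those cells were chosen for high counts of such genes, so this shift is fixed by the choice and tests nothing. Of 3660 genes at 50 CPM or more in either library and 20 UMIs or more in all, 360 (9.84%) were at least 1.5-fold higher in cKO and 666 (18.2%) were at least 1.5-fold lower. The counting interval excluded a log2 ratio of 0 for 247 and 439 of these. The split depended on scale. Median-of-ratios factors gave 477 higher and 539 lower, and totals without mitochondrial, ribosomal, haemoglobin and immunoglobulin genes gave 607 and 446. The median log2 ratio of the same genes was -0.08 in members and -0.45 in the other kept barcodes. The nuclear and ribosomal-RNA-related transcripts *Gm42418*, *Malat1* and *Lars2* together took 5.15% of the UMIs of Ctrl members and 3.14% of those of cKO members. Without the cells that carry other markers, *Malat1* had a log2 ratio of -1.98 (-2.12 to -1.84), among the 10 lowest there with *Hmmr* and *Dntt*. The part of these transcripts in the ratios was not tested.

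**Figure D4:**
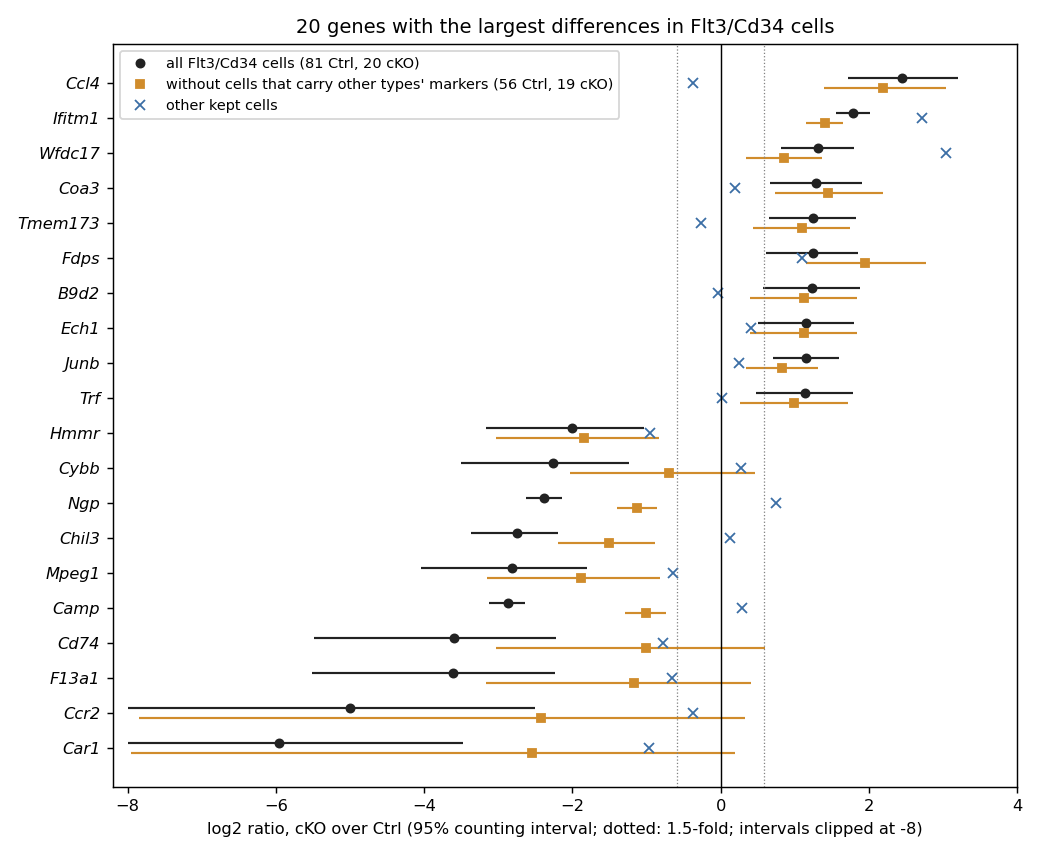
Log2 ratio of cKO to Ctrl with its exact counting interval for the 10 highest and 10 lowest named genes, in all Flt3/Cd34 cells (black), in those without markers of another cell type (orange) and in the other kept barcodes (blue crosses, no interval). Dotted lines mark 1.5-fold, and intervals past -8 are cut there. *Car1*, *Ccr2*, *F13a1*, *Cd74* and *Camp* lie nearer to 0 in orange than in black, while *Hmmr* stays at -1.84.

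*Ccl4*, a chemokine, had the highest ratio, at 23.5 CPM in Ctrl (28 UMIs) and 129 in cKO (41 UMIs), log2 2.45 (1.72 to 3.20), and 2.19 without the cells that carry other markers. In the other kept barcodes its log2 ratio was -0.37. *Ifitm1*, an interferon-induced membrane protein also present in stem cells, was at 269 and 928 CPM, log2 1.79 (1.55 to 2.02), with 2.71 in the other kept barcodes and 1.40 without the cells that carry other markers. *Wfdc17* had 1.31, against 3.04 in the other kept barcodes and 0.86 without the cells that carry other markers. In stem-like cells *Ifitm1* had 1.59 and *Wfdc17* 2.09, so both genes were also higher in cKO outside the Flt3/Cd34 cells. *Fdps*, farnesyl diphosphate synthase of the cholesterol pathway, had 1.24 (0.61 to 1.85), 1.10 in the other kept barcodes, and 1.95 without the cells that carry other markers. *Junb*, an AP-1 factor, had 1.15 (0.70 to 1.59), and 0.83 without those cells. *Coa3*, *Tmem173* (STING), *B9d2*, *Ech1* and *Trf* (transferrin) completed the 10, with 1.14 to 1.29.

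The lowest ratios came mostly from genes of other lineages. *Car1*, an erythroid carbonic anhydrase, had 233 UMIs in Ctrl, 143 of them in 1 cell, and 1 in cKO. Without the cells that carry other markers it was -2.54 (-7.95 to 0.19). *Ccr2*, a chemokine receptor of monocytes, went from 120 UMIs to 1 (log2 -5.01, and -2.43 without those cells). *F13a1* went from 183 to 4 UMIs (-3.62, and -1.16), and *Cd74*, the invariant chain of MHC class II, from 181 to 4 (-3.60, and -1.01), with 71 of the Ctrl UMIs in 1 cell. *Camp*, the cathelicidin of secondary granules, went from 3972 to 145 UMIs (-2.88, and -1.01), with 1000 in 1 Ctrl cell. *Chil3*, *Ngp* and *Cybb* had -2.75, -2.38 and -2.26, and -1.51, -1.12 and -0.70 without those cells. *Mpeg1*, a perforin-like gene of phagocytes, had -2.81, and -1.89 without those cells. The cells left out were chosen for high counts of such genes, so that a shift toward 0 follows from the choice.

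*Hmmr*, a spindle-associated protein and the one mitotic gene among the 10 lowest, went from 135 UMIs to 9, log2 -2.01 (-3.17 to -1.04), and -1.84 without those cells. The list of G2 and mitosis genes had 17 of 22 lower by at least 1.5-fold and none higher, with a median of -1.06 beside -0.08 over all genes tested. Its summed level was 6446 CPM in Ctrl and 3533 in cKO, log2 -0.87 (-0.96 to -0.78). *Mki67*, a proliferation marker, was at 656 and 254 CPM (log2 -1.37), *Top2a*, a topoisomerase, at 740 and 351, and the kinesin *Kif11* had -1.53. *Ccnb1*, *Cdk1*, *Cdc20*, *Ube2c* and *Cenpa* did not reach 1.5-fold. Without the cells that carry other markers, 13 were lower and the median was -0.69, and in the other kept barcodes the median was -0.61. The S phase list was even, with 2 of 24 genes higher, 3 lower (*Rrm1*, *Rrm2* and *Fen1*, at -0.91, -0.92 and -0.95) and a median of -0.04. The share of UMIs from both cell cycle lists together had a median of 0.848% per Ctrl cell (0.0971 to 2.95) and 0.505% per cKO cell (0.0981 to 1.58), so the cells of the libraries overlapped. After thinning, an *Mki67* UMI was found in 39.5% of Ctrl and 30% of cKO members, against 41.4% and 25% of stem-like cells.

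The lymphoid list had 3 of 8 genes lower, among them *Dntt* and *Notch1*, and *Il2rg* higher, beside 18.2% lower and 9.84% higher over all genes tested. *Dntt* had a log2 ratio of -1.07 (-1.45 to -0.71), and -1.68 without the cells that carry other markers. Its interval treats UMIs as independent, whereas 37 of the 70 cKO UMIs came from 1 cell. *Notch1*, a receptor that directs T cell fate, had -1.02. The progenitor transcription factors had 2 of 20 lower, *Mef2c* at -0.70 and *Tcf4* at -0.59, and *Hoxa9* higher. Without the cells that carry other markers 7 were lower and none higher. The stem cell list had 4 of 9 higher and none lower, *Ifitm1*, *Ifitm3* (0.67), *Ly6a* (0.73) and *Hoxa9* (0.60). Without those cells 2 were higher and 4 lower, and the median went from 0.56 to 0.02. The level summed over that list had 0.75 (0.62 to 0.87), and 0.39 (0.25 to 0.52) without those cells. The sum thus stayed higher in cKO, while the median lay near 0. *Irf8* went from -0.38 to 0.26 without those cells.

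Among the receptors, *Flt3* had -0.16, *Kit* -0.18 and *Cd34* 0.45 (0.17 to 0.73). The rule read *Flt3* and *Cd34* in both libraries, so their ratios are a description of cells chosen by them. *Cd27* had 0.63 (0.17 to 1.07) and *Sox4* 0.08. The cytokine receptor list had *Il1r1* (0.97) and *Il2rg* (0.86) higher and *Il6ra* lower (-1.27) of 12. With the cells that carry other markers left out, 4 genes of the list were higher and 2 lower, while *Il1r1* had 0.44 and *Il2rg* 0.37, under 1.5-fold, and *Il6ra* had -1.03. Of 14 FLT3 signaling genes, the adaptor *Grb2* (-0.82) and *Stat5b* (-0.71) were lower and none was higher, a share lower that is near the 18.2% of all genes. *Cd69*, an activation antigen, had 0, 2 and 24 UMIs per cell in Ctrl and 0, 0.5 and 12 in cKO, log2 -1.17. Of 3 tested genes of the cholesterol list, *Fdps* and its transcription factor *Srebf2* (0.92) were higher and none was lower. The level summed over the list had 0.62 (0.38 to 0.85), and 0.58 without the cells that carry other markers. *Rpl11*, a ribosomal protein, had 0.53 (0.43 to 0.63) and *Myc* 0.49 (0.14 to 0.84), under 1.5-fold.

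The lists of mature cells had the following counts. The late neutrophil list had 10 of 11 genes lower, with a median of -1.84, and -0.70 with 9 lower without the cells that carry other markers, whereas in the other kept barcodes its median was 0.78. The monocyte list had 3 of 4 lower and a median of -2.80, and -0.15 without those cells. MHC class II genes had 3 of 4 lower and a median of -2.56, and 0.21 on 1 tested gene without those cells. Of the myeloid list 3 of 10 were lower, *Ly6c2*, *Lyz2* and *Ly86*, beside 18.2% of all genes, and its median was -0.26, and 0.07 without those cells. The cells left out were chosen for their counts of neutrophil, monocyte and MHC class II genes, nearly all of them in Ctrl, so a shift of these medians toward 0 is fixed by that choice and tests nothing. The restricted monocyte median also rests on 2 tested genes. Early B and T cell genes were too scarce to compare, with 1 gene tested in each list and none past the fold.

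**Figure D5:**
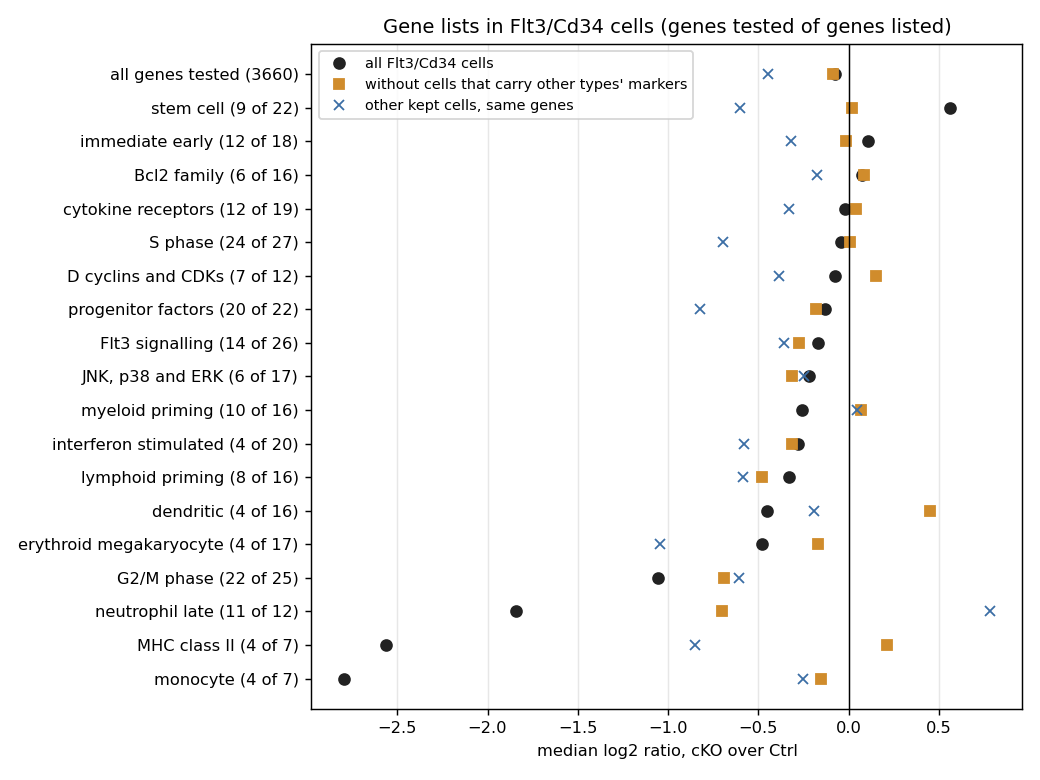
Median log2 ratio of cKO to Ctrl over the tested genes of each list in the Flt3/Cd34 cells, with all genes tested shown first, for all members, for members without markers of another cell type and for the other kept barcodes. The G2 and mitosis list lies at -1.06, -0.69 and -0.61, and the late neutrophil list at -1.84, -0.70 and 0.78.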

How the data were processed

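Droplet 3′ single-cell RNA-seq (BMKMANU DG1000) of 1 Ctrl and 1 cKO library was analyzed. The authors aligned reads with Cell Ranger 5.0.0 to mm10 and deposited filtered matrices of raw UMI counts. Per the labels and methods no replicate library entered this series, so levels are given with counting intervals and no p-value. No sample column was left unused (0).

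Counts were summed per population and library and divided by the population's total to give CPM. Ratios carry exact binomial intervals and shares Clopper-Pearson intervals (95%). Genes of the rule were set aside from the population contrasts, and *Hlf* also against stem-like cells. They were not set aside from the genotype contrast, where 6 rule genes were tested, 2 of them higher in cKO and 2 lower. Population contrasts required 10 UMIs in each library and a log2 ratio past 1 the same way in both. The genotype contrast required 50 CPM in 1 library, 20 UMIs in all and 1.5-fold. A count of 0 was bounded by a floor of 3 counts. The members and gene lists were chosen with earlier results of these data known, so no list is independent evidence.

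Named genes were those with the smaller of both libraries' ratios most extreme and at least 100 CPM on the higher side: 15 up and 10 down against the other kept barcodes, and 8 and 8 against stem-like cells and granule-low progenitors. For the genotypes the 10 highest and 10 lowest at 100 CPM in 1 library were named. Mitochondrial, ribosomal, haemoglobin and immunoglobulin genes were left out of the naming. A few genes that the rule or a list took are not reported here. Genes named within a list or a split were chosen for their level or size after their values were seen. The populations were: plasmacytoid dendritic-like (2 *Siglech* UMIs and *Bst2*), early B-like (*Ebf1* with 2 UMIs of *Vpreb1*, *Vpreb3*, *Igll1* and *Cd79a*), erythroid-like (*Gata1* and *Klf1*) and late neutrophil-like (2% *S100a8* and *S100a9*, no *Kit* or *Cd34*). The T and NK cell reference first planned took in granule-rich progenitors through *Nkg7* and was replaced, after seeing the data, by a set with *Cd3* genes only. The limits on genes and mitochondrial share are those of the study, the floor on UMIs was added here, and the study's doublet calls (DoubletFinder) were not used. Doublets were not called, and free RNA was not removed. Alternatives changed the scale, thinning, depth floor, rule thresholds, filters and denominator. Intervals, contrasts and thinning were tested on simulated data without spread between cells, so that test does not cover sums concentrated in few cells. Python 3.11.15, numpy 2.4.6, scipy 1.17.1, pandas 2.3.3 and matplotlib 3.10.9 were used.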

Additional observations from a re-analysis of the deposited data

Results flagged for a closer look

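Some genes had a ratio of cKO to Ctrl past 1.5-fold in the Flt3/Cd34 cells and past it in the opposite direction in the other kept barcodes. With 1 library per genotype the difference between the populations was not tested. Of these genes, 6 belong to neutrophils and myeloid cells and were lower in cKO members. *Ngp* had a log2 ratio of -2.38 in members and 0.74 in the other kept barcodes. *Lcn2* had -1.86 and 1.04, *S100a9* -1.84 and 0.78, *S100a8* -1.72 and 0.83, *Cd177* -1.34 and 0.67, and *Lyz2* -1.25 and 0.87. Without the cells that carry markers of another cell type, the member values were -1.12 for *Ngp*, -0.94 for *Lcn2*, -0.59 for *S100a9*, -0.59 for *S100a8*, -0.60 for *Cd177* and -0.12 for *Lyz2*. The remaining 2 genes were higher in cKO members. *Cd27* had 0.63 in members and -0.77 in the other kept barcodes, and 0.37 without the cells that carry other markers. *Hoxa9*, a homeobox factor of progenitors, had 0.60 and -0.60, and 0.05 without those cells. In stem-like cells the log2 ratios were -1.08 for *Ngp*, -1.02 for *Cd177*, -0.31 for *Lcn2*, -0.13 for *S100a9*, -0.15 for *S100a8* and -0.35 for *Lyz2*, the same direction as in members, and 0.05 for *Cd27* and 0.04 for *Hoxa9*. In granule-low progenitors they lay between -0.39 (*Cd177*) and 0.54 (*Lyz2*).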

How the results depend on the processing

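No paired analysis was possible because each genotype had 1 library, and for the same reason no replicate could be left out. The share of Flt3/Cd34 cells was lower in cKO in all settings run. The difference in percentage points was -1.14 with a floor of 5000 UMIs and -0.987 with up to 1 UMI each of *Mecom*, *Siglech* and *Ebf1*. It was -0.182 with the rule applied after thinning (18 and 3 cells). With other denominators it was -2.24 of *Cd34* barcodes, -0.985 of *Kit* barcodes and -3.51 of *Flt3* barcodes. It went from -0.846 to -0.351 otherwise. The number of genes past the fold between genotypes, 1026, became 2685 with no minimum CPM and 156 at 200 CPM. Genes past 2-fold against the other kept barcodes, 3171, became 6118 with no minimum UMIs. Against stem-like cells 396 became 58 after thinning and 1423 with no minimum, and against granule-low progenitors 833 became 413 and 2304. Those settings test fewer or more genes by construction. The median of the interferon-stimulated list, -0.28, became 1.19 on 1 gene after thinning, and that of MHC class II genes, -2.56, became 0.21 on 1 gene without the cells that carry other markers. The cause of the first was not tested. The stem cell median went past 1.5-fold under median-of-ratios factors (0.64), reduced totals (0.71) and a floor of 5000 UMIs (0.59), the dendritic median with mean proportions (-0.88), and the lymphoid, myeloid and kinase medians after thinning (-1.30, -1.10 and -1.23). The monocyte median went under it without the cells that carry other markers (-0.15). The remaining 179 list medians kept their side of the fold, though small medians changed sign, among them the dendritic (-0.45 to 0.45) and myeloid (-0.26 to 0.07) ones without the cells that carry other markers. Of the named gene values 172 kept their side of the fold, and *Tmem173* (0.14) and *Junb* (0.52) fell under 1.5-fold after thinning. Depth limits the cKO values, which rest on 20 cells and 318998 UMIs.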

Other observations

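Several gene groups that the comparisons above do not cover are given here as values of cKO against Ctrl in the Flt3/Cd34 cells. Over all genes tested 9.84% were past 1.5-fold higher and 18.2% lower, and in each list below no more than 1 gene passed in either direction. Of 6 tested genes of the BCL2 family, *Bad*, which promotes cell death, was past 1.5-fold (log2 0.82), *Bcl2* had 0.27, *Mcl1*, which opposes death, had -0.57, and the median was 0.07. Of 6 genes of the JNK, p38 and ERK pathways, *Map2k2*, a kinase of ERK, was higher (0.92), *Mapk14*, p38 alpha, was lower (-0.69), and the median was -0.22. *Map4k1*, a relative of *Map4k4* in blood cells, had 0.79. Of 7 genes of cell cycle entry, the inhibitor *Cdkn1a* was higher (0.78), *Cdk6* had 0.22, and the median was -0.08. Of 4 interferon-stimulated genes, *Ifi27l2a* was lower (-0.66), *Bst2* had 0.52, and the median was -0.28. Of 12 immediate early genes, which respond to handling and to growth factors, *Junb* was higher, *Klf6* was lower (-1.08), and the median was 0.10.

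Immunoglobulin transcripts took 0.124% of the UMIs of Ctrl members and 0.0395% of cKO members. *Igkc* had a log2 ratio of -2.54 and *Igha* of -3.79, and the median of both was -3.17, and -3.37 without the cells that carry markers of another cell type. Haemoglobin genes took 0.0310% and 0.00439%. The part of free RNA in these values was not tested.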
